A study of Mus musculus with 9 samples.

Results

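Cohesin is a ring-shaped protein complex that extrudes chromatin into loops and is halted where CTCF is bound, so that a place where many loops end or pass can contact many other places on its chromosome. Such contacts were read here by HiChIP, in which crosslinked and ligated chromatin is immunoprecipitated and paired reads report 2 DNA segments held together near the precipitated protein. Described here are the most widely contacting 25 kb windows (bins) of the genome in cohesin HiChIP of CD4+ CD8+ thymocytes, the double-positive stage at which T cell precursors rearrange their receptor alpha genes and undergo selection. A bin was taken when its number of distinct partner bins, from interactions on chromosomes 1 to 19 with anchor midpoints at least 10 kb apart, lay in the top 2% of non-empty bins in both Smc1 libraries of BL6 mice. This rule gave 740 highly connected bins, out of 89032 bins with a partner in both of those libraries and 93697 with a partner in any table.

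Live double-positive cells were sorted from thymi of NOD/ShiLtJ mice (NOD), a strain that develops autoimmune diabetes, of (NOD/ShiLtJ X C57BL/6) F1 mice, and of C57BL/6J mice (BL6). All groups were untreated as far as the labels say, and the labels give neither age nor sex nor how many animals were pooled. H3K27ac, the acetylated histone H3 found at active promoters and enhancers, was precipitated in 2 NOD and 2 BL6 libraries that the sample names number as separate biological replicates. Smc1, a cohesin subunit, was precipitated in 2 NOD libraries, 1 F1 library and 2 BL6 libraries, and the names mark each strain's 2 Smc1 libraries as technical repeats of 1 biological replicate. The names of the 4 H3K27ac samples also carry Smc1; the antibody field was followed, and every H3K27ac value rests on it. The F1 library was deposited as 2 tables, 1 per parental genome, and NOD libraries were mapped on the NOD genome, so strain and mapping genome cannot be told apart. Because the cells were pooled, a contact made in fewer cells and a weaker contact in each cell cannot be told apart either.

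The 10 tables held between 158592 and 965894 interactions that could be used, with 381002 to 2620621 read pairs, and 3 of the 4 H3K27ac tables were the shallowest, while H3K27ac BL6 2 was deeper than both F1 tables. A table lists a pair only from 2 read pairs upward and at a q-value of at most 0.05. A partner that is missing was therefore not listed, and was not measured as 0. H3K27ac NOD 1, H3K27ac BL6 1 and Smc1 NOD 2 stood apart, with 3.56%, 4.86% and 9.61% of their interactions on chromosomes 16 to 19, against 13.4% to 14.9% in the other tables. H3K27ac NOD 1 was also low on chromosomes 3, 10, 12, 13, 14 and 15, with 2.40% to 3.06% each, and high on chromosomes 5, 7, 9 and 11, with 10.1% to 11.8% each. H3K27ac BL6 1 had 2.97% on chromosome 10 and 3.74% on chromosome 13. Values are therefore given library by library, and the shares and tallies also by chromosome or without these 3 libraries. Contact tables check cell identity poorly: the best bin of the 10 double-positive markers had a median of 17.5 and 8 partners in the Smc1 NOD libraries, while that of 5 B cell markers had 22 and 14. One double-positive marker, Ptcra, had no listed partner in Smc1 NOD 2 and in F1 on the BL6 genome.

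The sequences at start sites inside the bins come from RefSeq promoter windows on GRCm38.p6, from 250 bases before to 50 bases after the start. Of 31396 such windows, 276 (from 235 genes) had their start site in a highly connected bin. Those shown belong to the thymocyte transcription factor genes whose start site lies in such a bin (Bcl11b, Bcl6 with its pair of start sites, Runx1 and Id2) and to the predicted genes Gm52008 and Gm40569 in the Bcl11b neighbourhood, whose bins lead the partner counts described later. Capitals mark the Tcf1 word CTTTGAA in the Bcl11b window and the Runx word TGTGGTT, present at 2 places, in the Gm40569 window. Each sequence reads 5′ to 3′ on the strand of its gene.
Bcl11b, chr12:108003365-108003664, minus strand: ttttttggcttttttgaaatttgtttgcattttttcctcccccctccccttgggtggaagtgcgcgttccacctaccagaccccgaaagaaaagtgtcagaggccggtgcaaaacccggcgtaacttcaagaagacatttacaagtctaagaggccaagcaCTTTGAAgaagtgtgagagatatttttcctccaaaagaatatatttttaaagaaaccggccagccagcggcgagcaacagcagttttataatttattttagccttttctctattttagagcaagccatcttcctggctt
Bcl6, chr16:23988803-23989102, minus strand: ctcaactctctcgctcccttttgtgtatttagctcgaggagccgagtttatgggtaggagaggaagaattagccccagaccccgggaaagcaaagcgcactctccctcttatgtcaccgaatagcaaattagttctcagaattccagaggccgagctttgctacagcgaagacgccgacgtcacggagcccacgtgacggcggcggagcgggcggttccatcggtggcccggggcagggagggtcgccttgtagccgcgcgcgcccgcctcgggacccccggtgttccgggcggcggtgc
Bcl6, chr16:23981234-23981533, minus strand: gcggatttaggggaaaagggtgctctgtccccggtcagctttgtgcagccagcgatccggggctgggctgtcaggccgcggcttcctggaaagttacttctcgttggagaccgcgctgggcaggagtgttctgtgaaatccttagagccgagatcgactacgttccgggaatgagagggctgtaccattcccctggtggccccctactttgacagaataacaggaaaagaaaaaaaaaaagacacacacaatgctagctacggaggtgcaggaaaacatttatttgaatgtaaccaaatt
Runx1, chr16:92697280-92697579, minus strand: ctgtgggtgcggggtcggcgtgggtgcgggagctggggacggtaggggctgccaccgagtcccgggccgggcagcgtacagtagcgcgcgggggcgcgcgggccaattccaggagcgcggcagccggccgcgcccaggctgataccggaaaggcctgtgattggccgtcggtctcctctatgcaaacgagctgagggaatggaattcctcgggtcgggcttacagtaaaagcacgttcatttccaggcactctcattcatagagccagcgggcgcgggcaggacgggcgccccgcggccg
Id2, chr12:25096043-25096342, minus strand: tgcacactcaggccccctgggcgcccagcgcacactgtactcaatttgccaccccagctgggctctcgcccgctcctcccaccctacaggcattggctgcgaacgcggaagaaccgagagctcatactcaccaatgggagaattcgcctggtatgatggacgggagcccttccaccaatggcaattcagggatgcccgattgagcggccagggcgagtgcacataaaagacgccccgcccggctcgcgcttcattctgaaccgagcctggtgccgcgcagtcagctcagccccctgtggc
Gm52008, chr12:107110831-107111130, plus strand: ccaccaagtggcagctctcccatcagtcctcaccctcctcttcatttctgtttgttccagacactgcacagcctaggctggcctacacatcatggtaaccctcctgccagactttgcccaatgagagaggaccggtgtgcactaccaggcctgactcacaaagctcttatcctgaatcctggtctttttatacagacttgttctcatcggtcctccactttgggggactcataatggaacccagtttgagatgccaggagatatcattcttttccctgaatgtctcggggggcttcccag
Gm40569, chr12:106836622-106836921, plus strand: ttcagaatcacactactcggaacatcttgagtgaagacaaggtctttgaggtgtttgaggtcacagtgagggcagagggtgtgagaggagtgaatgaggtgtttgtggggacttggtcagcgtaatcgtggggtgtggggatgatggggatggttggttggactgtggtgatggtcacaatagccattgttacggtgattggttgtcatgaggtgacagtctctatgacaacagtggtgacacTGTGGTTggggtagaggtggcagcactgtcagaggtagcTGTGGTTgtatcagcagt

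Short words of known factors were searched on both strands, and all but the Ets word differed little in frequency from all promoters. The E-box CAGGTG was in 24.3% of the 276 windows, against 20.5% of all 31396. The Tcf1 word CTTTGAA was in 5.80%, against 5.09%, and the Runx word TGTGGTT was in 6.88%, against 5.32%. The Ets word CGGAAGT, a mark of many housekeeping promoters, was in 2.54%, against 6.50%. The core of the CTCF motif was in 0 of the 276 windows, against 0.182% of all, and the median GC content was 51%, against 53%. The CTCF core can contain the E-box, the other words do not contain each other, and the shares were not tested. A word in a window does not show that its factor binds there. The interaction anchors themselves could not be searched, because no genome sequence was used here.

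The Smc1 BL6 values chose the bins and are given as a description only. The least connected of the 740 bins had 34 partners in Smc1 BL6 1 and 44 in Smc1 BL6 2, the thresholds themselves, and the most connected had 67 and 78. With ties, the top 2% of the Smc1 BL6 libraries held 2.17% and 2.39% of their bins with a partner. The median highly connected bin had 39 and 50 partners, and the median of all bins with a partner was 12 and 16. A single library put 1982 or 2157 bins in its top 2%, so most bins at the top of one technical repeat were not at the top of the other. A threshold in at least one library was met exactly by 148 of the 740 bins, and 185 further bins missed by 1 partner in 1 library.

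At the edge of the rule, the bin over Hs6st1, a heparan sulfate sulfotransferase, the bin over Slc29a3, a nucleoside transporter, and a bin 41.0 kb from the interferon gamma gene Ifng each had exactly 34 and 44 partners in the Smc1 BL6 libraries. Just outside it, a bin of the Bcl11b neighbourhood at chr12:106925001-106950000 had 49 and 43 partners in Smc1 NOD, against 33 and 64 in Smc1 BL6. A bin 5.08 kb from Slc2a10, a glucose transporter gene, had 31 and 24 in Smc1 NOD, against 33 and 63 in Smc1 BL6. Another at chr12:107775001-107800000 had 52 and 13 in Smc1 NOD, against 53 and 43 in Smc1 BL6. The bins just inside the edge had 29 and 25 (Hs6st1), 20 and 28 (Slc29a3) and 40 and 19 partners (Ifng) in Smc1 NOD, so that the first bin outside lay above all 3 in both Smc1 NOD libraries.

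In every table that took no part in the choice, the median highly connected bin had more partners than the median bin, by 1.5 to 2.82 times in H3K27ac and by 2.80 to 3.33 times in Smc1. In H3K27ac NOD 1 and 2 the median highly connected bin had 6 and 15 partners, where the median of all bins with a partner was 4 and 6. In H3K27ac BL6 1 and 2 it had 9 and 31, where all bins had 4 and 11. In Smc1 NOD 1 and 2 it had 34.5 and 28, where all bins had 11 and 10. In F1 it had 20 and 19 on the NOD and BL6 genomes, where all bins had 6 on either. Of the 740 bins, 739 and 727 lay above the median of all bins in the Smc1 NOD libraries, against 443 and 670 in H3K27ac NOD and 546 and 729 in H3K27ac BL6.

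**Figure D1:**
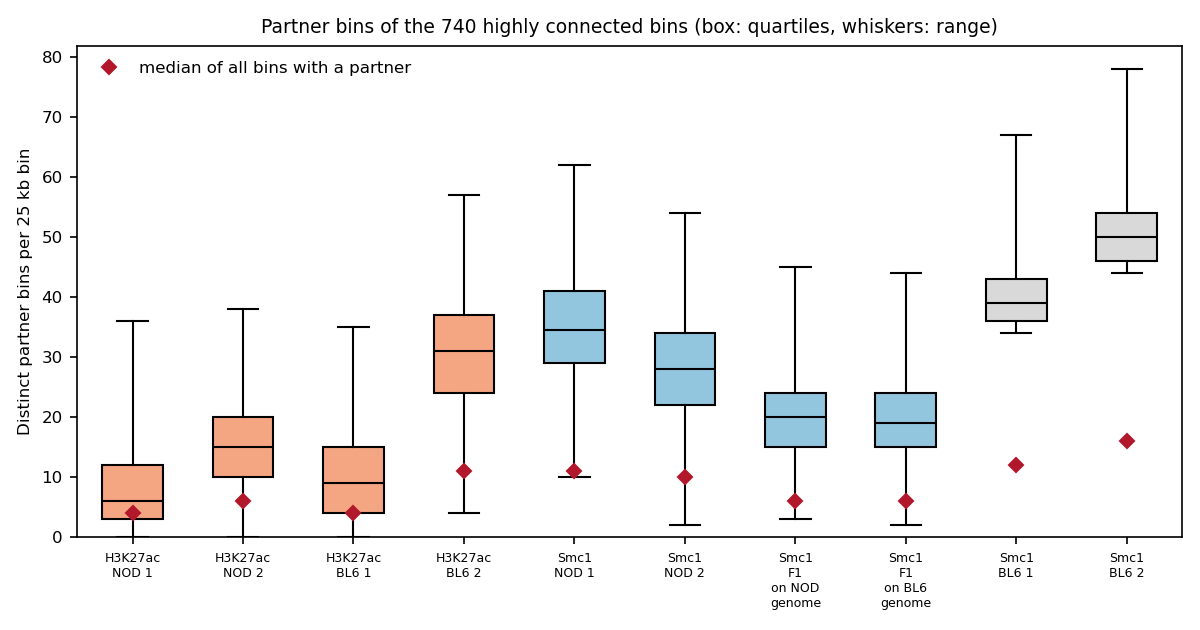
Distinct partner bins (vertical axis, number per 25 kb bin) of the 740 highly connected bins in each of the 10 tables; boxes span the quartiles with the median as a line, whiskers span the range, and red diamonds give the median of all bins with a partner. The Smc1 NOD medians of 34.5 and 28 stand well above their diamonds at 11 and 10, as do the Smc1 BL6 medians of 39 and 50, which chose the bins, while the box of H3K27ac NOD 1, with a median of 6, reaches below its diamond at 4.

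The share of the 740 bins that also stood in a table's own top 2% was 8.24% and 27.4% in H3K27ac NOD 1 and 2 and 19.7% and 42.2% in H3K27ac BL6 1 and 2. It was 55.5% and 48.2% in Smc1 NOD 1 and 2, and 50.8% and 48.4% in F1 on the NOD and BL6 genomes. With ties, the top 2% held 2.23% and 2.03% of all bins with a partner in H3K27ac NOD, 2.54% and 2.22% in H3K27ac BL6, 2.28% and 2.17% in Smc1 NOD, and 2.63% and 2.49% in F1 on the NOD and BL6 genomes. The mean share was 17.8% ± 13.6 in H3K27ac NOD and 30.9% ± 15.9 in H3K27ac BL6 (SD, n = 2 each). Over the 2 technical repeats of Smc1 NOD, which are 1 biological replicate, it was 51.9%. The NOD and BL6 shares for H3K27ac overlapped, and both H3K27ac ranges lay below the Smc1 NOD range. For the F1 library the exact 95% binomial intervals were 47.1% to 54.5% and 44.7% to 52.0% on the NOD and BL6 genomes; these intervals cover counting error only, and neighbouring bins share contacts. Strains and antibodies were not tested against each other on these shares, since bins are not replicates.

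Chromosomes 16 to 19 carried 132 of the 740 bins, and the libraries with few interactions there placed few of these at the top. The share in the top 2% among the 132 bins was 0% in H3K27ac NOD 1 and 32.6% in H3K27ac NOD 2, 0.758% in H3K27ac BL6 1 and 49.2% in H3K27ac BL6 2, and 56.1% in Smc1 NOD 1 and 27.3% in Smc1 NOD 2. A count of 0 among 132 bins allows a share of up to 2.27%. On chromosomes 1 to 15, with 608 bins, the shares were 10.0% and 26.3% in H3K27ac NOD, 23.8% and 40.6% in H3K27ac BL6, and 55.4% and 52.8% in Smc1 NOD. With the top 2% taken within each chromosome, a setting chosen after seeing the data, the shares were 10.9% and 27.4% in H3K27ac NOD, 19.3% and 38.2% in H3K27ac BL6, and 51.1% and 51.8% in Smc1 NOD. The replicates of H3K27ac remained apart both ways, while the Smc1 NOD libraries came closer together.

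**Figure D2:**
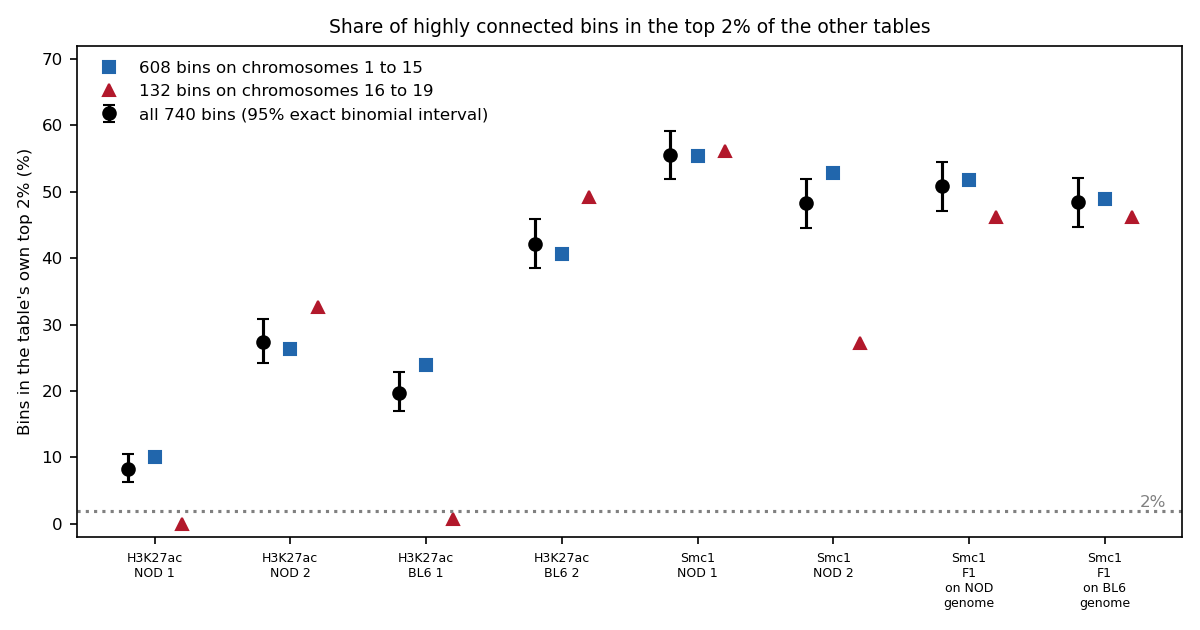
Percent of highly connected bins (vertical axis) found in the top 2% of each of the 8 tables that did not choose them, over all 740 bins (circles, with exact 95% binomial intervals), the 608 on chromosomes 1 to 15 (squares) and the 132 on chromosomes 16 to 19 (triangles); the dotted line marks 2%. Smc1 tables sit between 48.2% and 55.5% over all bins and H3K27ac tables between 8.24% and 42.2%, and the triangles of H3K27ac NOD 1, H3K27ac BL6 1 and Smc1 NOD 2 fall far below their squares.

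Applied to other pairs of libraries, the same rule gave lists of different length. It gave 78 bins in H3K27ac NOD, of which 19 were among the 740 (2.57% of the 740 and 24.4% of the H3K27ac NOD list). It gave 185 bins in H3K27ac BL6, of which 78 were shared (10.5% and 42.2%). In Smc1 NOD it gave 638 bins, of which 245 were shared (33.1% and 38.4%). Across the 7 libraries that did not choose the bins, with F1 taken on the BL6 genome, 86 bins (11.6%) stood in no top 2%, 176 stood in exactly 2, and 8 (1.08%) stood in all 7. Of the 132 bins on chromosomes 16 to 19, none could be among the 8, since H3K27ac NOD 1 had 0 of them in its top 2%. Across the other 4 libraries alone, a tally chosen after seeing the data, 146 bins (19.7%) stood in no top 2% and 82 (11.1%) in all 4, of which 38 were in the Bcl11b cluster and 16 on chromosomes 16 to 19. Neither tally was made over all bins, so these counts have no share of all bins beside them and are a description only. The lists of the pairs likewise rest on the libraries that stand apart: H3K27ac NOD 2 alone put 1080 bins in its top 2% with 203 of the 740, H3K27ac BL6 2 alone 1476 with 312, and Smc1 NOD 1 alone 1994 with 411.

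The 8 bins at the top of all 7 libraries lay at 3 places. Of these, 5 were in the Bcl11b neighbourhood on chromosome 12, 2 were adjacent bins, the nearer 13.3 kb from Rplp1, a ribosomal protein gene on chromosome 9, and 1 was at chr1:183700001-183725000, 263 kb from Hhipl2. None of the 8 overlapped a protein-coding gene other than predicted genes with clone-type names. The bin at chr12:108025001-108050000, 20.9 kb upstream of Bcl11b, had 24 and 35 partners in H3K27ac NOD, 34 and 54 in H3K27ac BL6, 56 and 50 in Smc1 NOD, 45 and 42 in F1 on the NOD and BL6 genomes, and 56 and 72 in Smc1 BL6. It had the highest mean percentile of all 740 bins in H3K27ac and the second highest in Smc1 NOD.

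The bins were far from evenly spread. Joined where gaps were at most 250 kb, they formed 294 clusters, of which 175 held 1 bin and 28 held 6 or more. Those 28 clusters contained 322 bins, 43.5% of the 740. Chromosome 12 held 84 bins (11.4% of the 740, against 4.67% of all bins), chromosome 13 held 70 (9.46%, against 4.84%) and chromosome 8 held 62 (8.38%, against 5.34%). Chromosome 3 held 13 (1.76%, against 6.54%) and chromosome 5 held 16 (2.16%, against 6.13%).

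The largest cluster ran over 1900 kb from chr12:106275001 to 108175000 and made 61 of its 76 bins highly connected. It contained Bcl11b, the zinc-finger factor that commits precursors to the T cell lineage, and Setd3, a methyltransferase that modifies actin. The rest was a gene desert: 52 of the 61 bins overlapped no protein-coding gene. Of the 61 bins, 7 and 52 stood in the top 2% of H3K27ac NOD 1 and 2, 31 and 55 in H3K27ac BL6 1 and 2, 54 and 49 in Smc1 NOD 1 and 2, and 51 and 50 in F1 on the NOD and BL6 genomes. The count was lowest in H3K27ac NOD 1, where chromosome 12 held 3.06% of all interactions used, while it held 4.16% to 4.79% elsewhere; the part of this coverage in the count was not tested. Without these 61 bins, the mean share of the remaining 679 in the top 2% was 15.1% in H3K27ac NOD, 27.4% in H3K27ac BL6 and 49.0% in Smc1 NOD.

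Contacts of the cluster ran inward from its ends. Bcl11b lies on the minus strand, and the bin with its start site at chr12:108003414 had 9 of 10 and 33 of 35 partners at lower coordinates, toward the gene body and the desert, in H3K27ac NOD. In H3K27ac BL6 26 of 26 and 50 of 51 lay on that side, in Smc1 NOD 48 of 48 and 41 of 43, in F1 31 of 33 and 37 of 39 on the NOD and BL6 genomes, and in Smc1 BL6 61 of 62 and 55 of 58. Its farthest listed partner on that side lay between 1725 and 1975 kb away in all 10 tables. These distances lie close to the largest span that was listed. A farther partner could not be seen, so they do not measure how far the contacts of this bin reach. Of its partners in Smc1 NOD, 37 of 48 and 31 of 43 were themselves highly connected, against 44 of 62 and 42 of 58 in Smc1 BL6.

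At the other end, the bin at chr12:106525001-106550000 had most partners at higher coordinates: 37 of 50 and 23 of 34 in Smc1 NOD, against 44 of 52 and 52 of 71 in Smc1 BL6. The most connected bin by the rule, chr12:107800001-107825000, 85.4 kb beyond the end of Bcl11b, had 13 and 29 partners in H3K27ac NOD, 19 and 36 in H3K27ac BL6, 54 and 20 in Smc1 NOD, and 64 and 68 in Smc1 BL6. The 2 Smc1 NOD libraries stood far apart there. One-sided bins were not particular to the cluster or to the 740. With at least 10 partners required, 90% or more of the partners lay on 1 side for 3.51% and 5.75% of the highly connected bins in Smc1 NOD 1 and 2, against 3.12% and 4.19% of all bins.

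**Figure D3:**
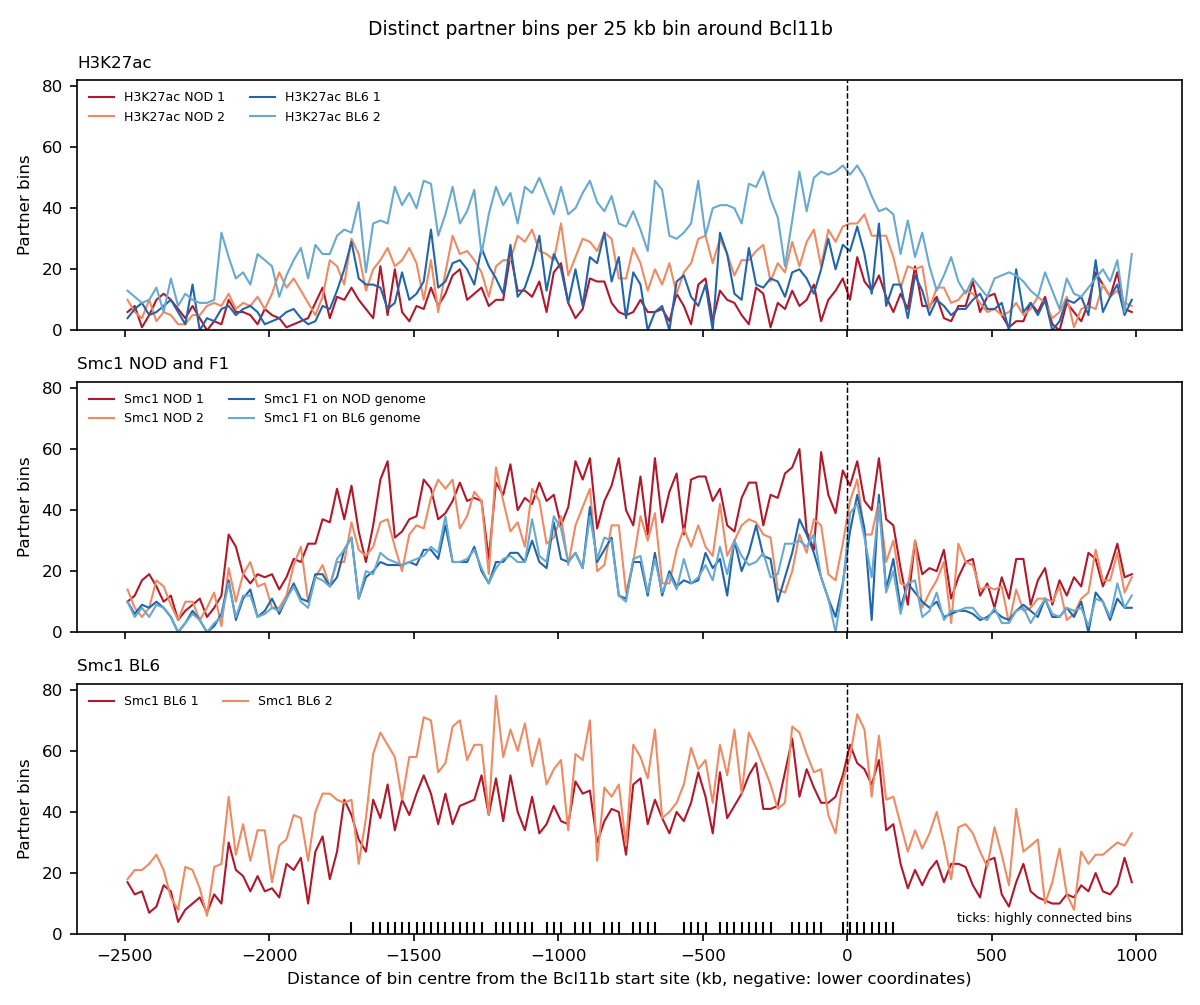
Distinct partner bins (vertical axis) of every 25 kb bin around Bcl11b, by distance of the bin centre from the start site in kb (horizontal axis, negative toward lower coordinates), with 1 line per table in 3 panels; ticks in the lowest panel mark highly connected bins and the dashed line the start site. In the Smc1 tables the counts are high over the desert and end sharply above the start site, and in the H3K27ac panel BL6 2 is the highest line and NOD 1 among the lowest.

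Ranked by read pairs summed over both Smc1 BL6 libraries, the strongest contact of the cluster spanned 875 kb. It joined the bin with the start site of the predicted gene Gm52008 (chr12:107100001-107125000) to the bin over the 5′ part of Bcl11b (chr12:107975001-108000000). It had 12 and 8 read pairs in H3K27ac NOD, 12 and 36 in H3K27ac BL6, 44 and 11 in Smc1 NOD, 4 on both genomes in F1, and 48 and 68 in Smc1 BL6. The Gm52008 bin itself had 17 and 29 partners in H3K27ac NOD, 24 and 49 in H3K27ac BL6, 57 and 47 in Smc1 NOD, and 47 and 70 in Smc1 BL6. The top partners of the 6 other leading bins of the cluster, picked by the same sum, were far weaker. They had 0 to 13 and 0 to 5 read pairs in Smc1 NOD 1 and 2, against 6 to 18 and 9 to 29 in Smc1 BL6 1 and 2. These are single pairs and do not give the reads of the cluster's other contacts. The bin with the Bcl11b start site had 182 and 136 read pairs over 48 and 43 partners in Smc1 NOD. In Smc1 BL6 it had 409 and 356 over 62 and 58 partners.

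The next clusters held other genes. On chromosome 13, 24 bins over 1500 kb overlapped Cd83, a surface protein that acts in CD4 T cell selection by the thymic epithelium, Jarid2, a partner of Polycomb repressive complex 2, and Dtnbp1, a vesicle-trafficking protein. The Cd83 bin, the best there, had 2 and 22 partners in H3K27ac NOD, 3 and 46 in H3K27ac BL6, 41 and 34 in Smc1 NOD, 20 on each genome in F1, and 55 and 61 in Smc1 BL6. In the whole cluster 17 and 13 of 24 bins stood in the top 2% of Smc1 NOD, against 0 and 9 in H3K27ac NOD and 1 and 15 in H3K27ac BL6.

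On chromosome 15, 21 bins over 1100 kb held the Myc gene, the growth factor-induced transcription factor that drives proliferation, and otherwise no protein-coding gene. The Myc bin had 4 and 22 partners in H3K27ac NOD, 10 and 29 in H3K27ac BL6, 49 and 45 in Smc1 NOD, 37 and 35 in F1 on the NOD and BL6 genomes, and 67 and 55 in Smc1 BL6. In this cluster 17 of 21 bins stood in the top 2% of either Smc1 NOD library, against 0 and 3 in H3K27ac NOD and 0 and 4 in H3K27ac BL6. Farther along the chromosome, 6 adjacent bins with no gene included chr15:63650001-63675000, which had 1 and 13 partners in H3K27ac NOD, 20 and 34 in H3K27ac BL6, 51 and 52 in Smc1 NOD, and 65 and 58 in Smc1 BL6. Of its partners, 48 of 51 and 46 of 52 in Smc1 NOD lay at lower coordinates, on the side of Myc, against 57 of 65 and 52 of 58 in Smc1 BL6.

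The 21 bins on chromosome 8 spread over 1700 kb with Tnks, the poly-ADP-ribosylating enzyme tankyrase, Eri1, a 3′ exonuclease that trims histone mRNA and small RNAs, and Ppp1r3b, a glycogen-targeting phosphatase subunit. Their standing differed between tables: 0 and 5 were in the top 2% of H3K27ac NOD, 0 and 13 of H3K27ac BL6, 13 and 3 of Smc1 NOD, and 1 on each genome in F1. The Tnks bin had 54 and 21 partners in Smc1 NOD and 24 and 26 in F1 on the NOD and BL6 genomes, against 54 and 58 in Smc1 BL6. The 2 NOD libraries differed by more here than NOD 1 did from BL6.

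On chromosome 9, 19 bins around Uaca, an apoptosome-binding protein, and Tle3, a Groucho-type corepressor, were the cluster with the most bins at the top of H3K27ac NOD 1. There 11 and 6 of 19 were in the top 2% in H3K27ac NOD, 10 and 7 in H3K27ac BL6, 11 and 14 in Smc1 NOD, and 12 and 11 in F1 on the NOD and BL6 genomes. One of its bins, chr9:61025001-61050000, had 26 and 24 partners in H3K27ac NOD, 22 and 43 in H3K27ac BL6, 31 and 40 in Smc1 NOD, and 40 and 47 in Smc1 BL6. The bin ranked number 3 of all 740 by mean percentile in H3K27ac. H3K27ac NOD 1 had 10.9% of its interactions on chromosome 9 and H3K27ac BL6 1 had 8.73%, against 6.12% in H3K27ac NOD 2 and 5.99% in H3K27ac BL6 2, and the part of this coverage in the cluster's standing was not tested.

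**Figure D4:**
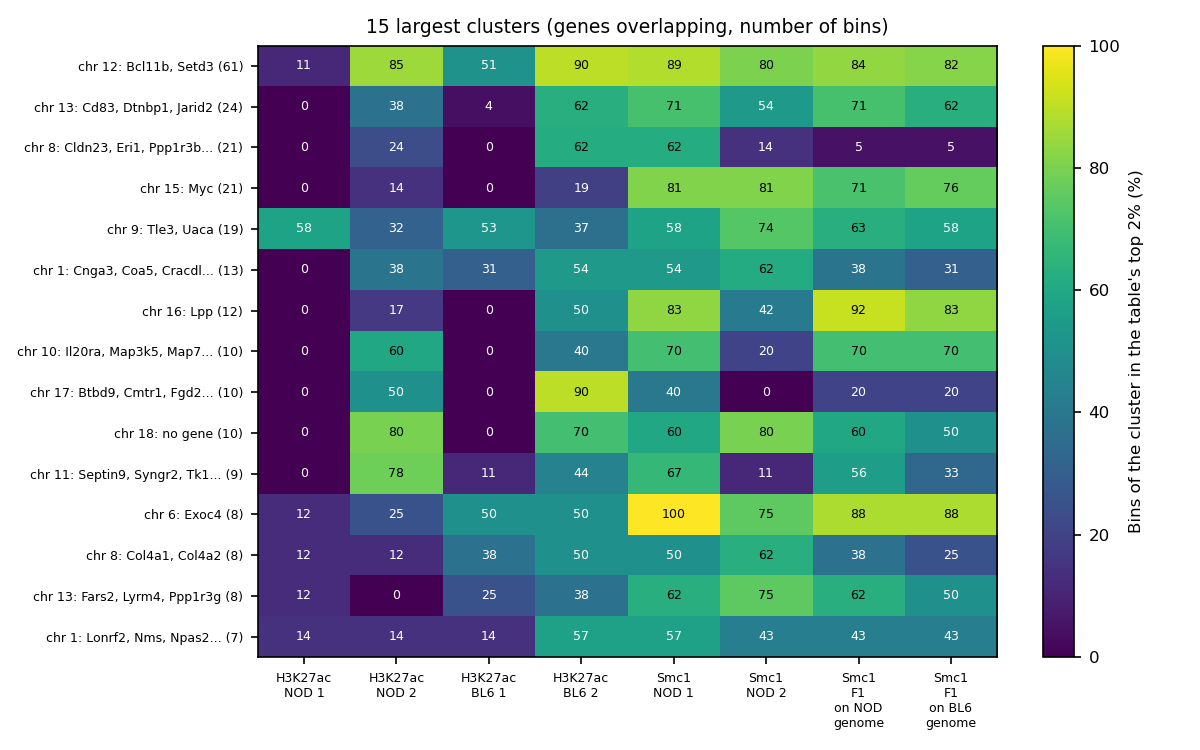
Percent of each cluster's bins (colour and printed number) in the top 2% of the 8 tables that did not choose the bins, for the 15 largest clusters, labelled by chromosome, up to 3 overlapping genes and number of bins. The Bcl11b row is high in all columns but H3K27ac NOD 1 and, in part, H3K27ac BL6 1; the Myc row is high in Smc1 columns and low in H3K27ac columns; and the chromosome 8 row with Eri1 and Ppp1r3b is high in Smc1 NOD 1 and H3K27ac BL6 2 but low in F1.

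Of 47 thymocyte transcription factor genes, 7 (14.9%) overlapped a highly connected bin, against 344 of 20665 protein-coding genes (1.66%), and 18 (38.3%) lay within 250 kb of one, against 9.47% of all. The bins and gene lists were chosen with earlier results of these data known, so these counts are a description and no independent support. The list's genes were longer, with a median of 47.3 kb against 17.5 kb, which gives them more bins to overlap. The part of length in the count was not tested. In 13 other lists the counts were lower. None of 38 T cell receptor signalling genes, 24 double-positive stage genes, 35 type 1 diabetes and Idd candidates, 19 cohesin and loop genes or 13 housekeeping genes overlapped such a bin, although 7, 5, 5, 2 and 0 of them lay within 250 kb. Of 33 cytokine and receptor genes 1 did (Tgfbr1, a TGF-β receptor chain), of 24 survival and selection genes 1 (Myc), and of 11 B cell genes 1 (Ebf1). Of the myeloid, natural killer, erythroid, thymic epithelial and neuronal or muscle genes (12, 10, 8, 8 and 16), none did.

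**Figure D5:**
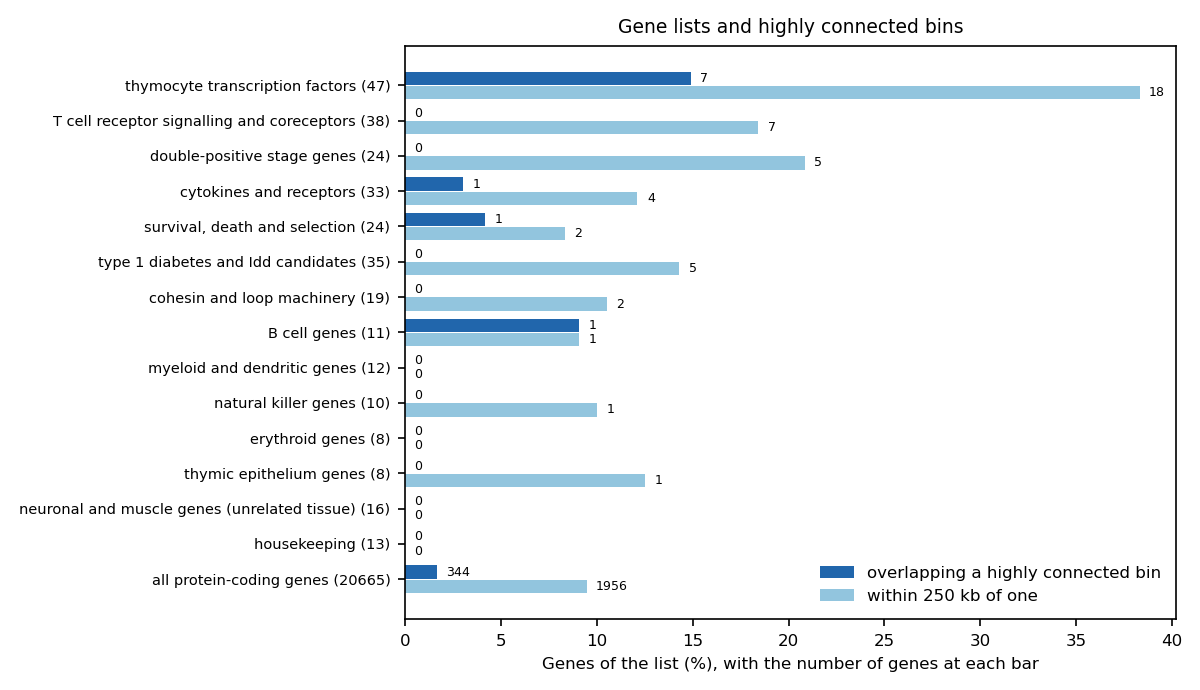
Percent of each list's genes (horizontal axis) that overlap a highly connected bin (dark bars) or lie within 250 kb of one (light bars), with the number of genes at each bar and the number of genes matched beside each list name; the lowest pair of bars gives all 20665 protein-coding genes. The thymocyte transcription factors have the longest bars, with 7 and 18 of 47 genes, and no housekeeping gene is at or near such a bin. The lists were chosen with earlier results of these data known.

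The 7 transcription factor genes were Bcl11b, Bcl6, Erg, Foxp1, Id2, Runx1 and Sox4. Bcl6, the repressor that directs follicular helper T cells, had its start sites in a bin with 1 and 17 partners in H3K27ac NOD, 0 and 31 in H3K27ac BL6, 57 and 31 in Smc1 NOD, 35 on each genome in F1, and 46 and 53 in Smc1 BL6. The neighbouring bin over its 3′ part had 6 and 35 partners in H3K27ac NOD, 2 and 35 in H3K27ac BL6, 58 and 44 in Smc1 NOD, 36 on each genome in F1, and 49 and 52 in Smc1 BL6. Both H3K27ac replicate 1 libraries were low here, and both carried few interactions on chromosome 16.

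Runx1, needed for early T cell development and for silencing of Cd4, had a start site in a bin with 2 and 22 partners in H3K27ac NOD, 6 and 39 in H3K27ac BL6, 42 and 27 in Smc1 NOD, 32 and 31 in F1 on the NOD and BL6 genomes, and 38 and 49 in Smc1 BL6. Id2, an inhibitor of E proteins on chromosome 12, had 8 and 18 in H3K27ac NOD, 26 and 41 in H3K27ac BL6, 36 and 37 in Smc1 NOD, 15 and 17 in F1 on the NOD and BL6 genomes, and 41 and 51 in Smc1 BL6. Sox4, an HMG-box factor of early lymphocytes, had a bin with 9 and 16 partners in H3K27ac NOD, 3 and 32 in H3K27ac BL6, 39 and 24 in Smc1 NOD, 31 and 32 in F1 on the NOD and BL6 genomes, and 52 and 48 in Smc1 BL6. For Foxp1, a keeper of T cell quiescence, the bins lay inside the gene, and the one at chr6:99450001-99475000 had 17 and 20 partners in H3K27ac NOD, 21 and 34 in H3K27ac BL6, 42 and 36 in Smc1 NOD, and 36 and 49 in Smc1 BL6. For these 4 genes both H3K27ac NOD libraries were below both Smc1 NOD libraries, which are deeper. Erg, an ETS factor of stem and progenitor cells that is silenced on T cell commitment, had a bin with 4 and 19 partners in H3K27ac NOD, 9 and 33 in H3K27ac BL6, 34 and 25 in Smc1 NOD, and 48 and 50 in Smc1 BL6.

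Outside the lists, the gene content of the 740 bins was close to that of all bins. No protein-coding gene overlapped 48.1% of them, against 46.2% of all bins with a partner in both Smc1 BL6 libraries, and the median number of protein-coding genes within 1 Mb was 6 in both sets. A long noncoding RNA gene overlapped 30.1%, against 19.9% of all bins. The share stayed at 29.9% for the 679 bins outside the Bcl11b cluster.

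Other bins high in the rule overlapped genes outside the lists. The Insc bin on chromosome 7, an adaptor of spindle orientation, had 14 and 14 partners in H3K27ac NOD, 12 and 18 in H3K27ac BL6, 42 and 49 in Smc1 NOD, and 50 and 64 in Smc1 BL6. The Il20ra bin on chromosome 10, a cytokine receptor chain, had 4 and 27 in H3K27ac NOD, 0 and 29 in H3K27ac BL6, 47 and 32 in Smc1 NOD, and 50 and 60 in Smc1 BL6. The bin over Jazf1, a zinc-finger cofactor, had 19 and 13 in H3K27ac NOD, 17 and 31 in H3K27ac BL6, 40 and 40 in Smc1 NOD, and 53 and 57 in Smc1 BL6. The Smc1 NOD values of all 3 bins lay below both Smc1 BL6 values. These bins were picked for high Smc1 BL6 counts, and both Smc1 BL6 tables were deeper, so this is no measure of a strain difference.

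Among the 740, the best connected in Smc1 NOD by mean percentile was a bin 3.25 kb from Dlx2, a homeobox gene, at chr2:71550001-71575000. It had 1 and 6 partners in H3K27ac NOD, 6 and 38 in H3K27ac BL6, 62 and 47 in Smc1 NOD, 33 and 34 in F1 on the NOD and BL6 genomes, and 45 and 48 in Smc1 BL6. Smc1 NOD 1 lay above both Smc1 BL6 values and Smc1 NOD 2 between them, and 62 was the highest count of any of the 740 bins in Smc1 NOD 1. The bin over the 3′ part of Bcl6, the Gm52008 bin, the Setd3 bin and the Myc bin were also among the 10 highest.

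By mean percentile over both libraries, the least connected in Smc1 NOD was chr16:8200001-8225000, 184 kb from Tmem114, with 0 and 3 partners in H3K27ac NOD, 0 and 6 in H3K27ac BL6, 10 and 9 in Smc1 NOD, 6 and 5 in F1 on the NOD and BL6 genomes, and 36 and 44 in Smc1 BL6. It was low in every library but those that chose it. In Smc1 NOD 2 alone the lowest was chr4:133450001-133475000, with 30 and 2 partners in Smc1 NOD, against 38 and 47 in Smc1 BL6. The Mgat3 bin on chromosome 15, over an N-glycan branching enzyme gene and eighteenth by the rule, had 1 and 23 partners in H3K27ac NOD, 6 and 40 in H3K27ac BL6, 18 and 12 in Smc1 NOD, 27 on each genome in F1, and 47 and 61 in Smc1 BL6. The bin over Ovol1, a zinc-finger repressor gene on chromosome 19, had 35 and 5 in Smc1 NOD, 29 and 30 in F1 on the NOD and BL6 genomes, and 43 and 63 in Smc1 BL6. In 6 of the 10 lowest bins Smc1 NOD 2 had fewer than 10 partners, while Smc1 NOD 1 had 20 or more. The bins were chosen for high counts in Smc1 BL6, so lower values elsewhere are no measure of a strain difference, and none in Smc1 was tested.

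The F1 library gave nearly the same picture on its 2 genomes. Partner numbers were equal in 214 of the 740 bins and within 2 of each other in 577. They were higher on the NOD genome in 283 bins and on the BL6 genome in 243, with differences of 12 to -14 partners (NOD minus BL6 genome). The largest difference was at chr12:108075001-108100000 in the Bcl11b cluster, with 4 partners on the NOD genome, against 18 on the BL6 genome. Next came a pair of bins that differed by 12. The one over Apobec3, an antiviral cytidine deaminase gene, and Cbx7, a Polycomb subunit gene, had 15 on the NOD genome, against 3 on the BL6 genome. The other, chr12:107675001-107700000 in the Bcl11b cluster, had 35 on the NOD genome, against 23 on the BL6 genome.

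Some partners of highly connected bins were highly connected too. Of the partners of these bins, 15.9% to 19.9% were themselves highly connected in the 10 tables, while the bins made up between 0.812% and 1.47% of all bins with a partner. The share of bins is no baseline here, since a bin with many partners is itself a partner of many bins. Of all pairs of bins, 3.62% to 5.83% involved a highly connected bin. The 10 tables also include the Smc1 BL6 tables that chose the bins. Clusters bring bins of the set close to each other, and the parts of distance and of the choice in this share were not tested. Contacts with a highly connected bin spanned a median of 700 and 775 kb in Smc1 NOD, against 600 and 775 kb for other contacts. They held 3.40 and 3.25 read pairs per pair of bins in Smc1 NOD, against 2.91 and 2.87 for other pairs. In H3K27ac NOD they held 2.49 and 2.84, against 2.54 and 2.76, and in H3K27ac BL6 2.80 and 3.36, against 2.77 and 2.96, so that H3K27ac NOD 1 ran the other way. Median reads at the anchors of a bin were 2609 and 3102.5 in Smc1 NOD, against 1338 and 1929 for all bins, so the bins were also more deeply covered.

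A pair of bins listed in both Smc1 BL6 libraries was listed again more often when it involved a highly connected bin. Of 12996 such pairs, 9.93% and 21.2% were listed in H3K27ac NOD, 14.1% and 37.9% in H3K27ac BL6, 44.5% and 37.6% in Smc1 NOD, and 28.5% and 28.3% in F1 on the NOD and BL6 genomes. Of 131408 other pairs, 8.14% and 11.1% were listed in H3K27ac NOD, 9.63% and 21.8% in H3K27ac BL6, 29.2% and 24.8% in Smc1 NOD, and 16.3% and 16.2% in F1 on the NOD and BL6 genomes. At an equal sum of 4 read pairs in Smc1 BL6, the shares in Smc1 NOD were 25.9% and 24.0% of 2505 pairs with a highly connected bin, against 15.4% and 14.9% of 37943 others. From 10 read pairs upward they were 63.4% and 54.4%, against 54.5% and 45.4%. H3K27ac NOD 1 differed from the other tables, with 16.0% against 16.9% from 10 read pairs upward.

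Contacts of the 740 bins were ranked by read pairs summed over both Smc1 BL6 libraries, whose values also chose the bins. The first joined the bins over Slc2a6, a hexose transporter gene, and Sardh, the sarcosine dehydrogenase gene, 200 kb apart on chromosome 2. It had 2 and 22 read pairs in H3K27ac NOD, 29 and 45 in H3K27ac BL6, 51 and 75 in Smc1 NOD, 43 on each genome in F1, and 135 and 134 in Smc1 BL6. A contact of 900 kb on chromosome 16, from a bin in the Runx1 cluster at chr16:92550001-92575000, had 0 and 11 in H3K27ac NOD, 0 and 32 in H3K27ac BL6, 77 and 50 in Smc1 NOD, 79 and 83 in F1 on the NOD and BL6 genomes, and 103 and 82 in Smc1 BL6. This chromosome 16 contact had more read pairs than the Slc2a6 contact in Smc1 NOD 1 and F1, and fewer in the other tables. Both replicate 1 libraries of H3K27ac listed nothing at the Runx1 contact, as at other places of chromosome 16. A 375 kb contact from a bin over the predicted gene Gm38821 to Snx10, a sorting nexin gene on chromosome 6, had 10 and 9 read pairs in H3K27ac NOD, 32 and 26 in H3K27ac BL6, 51 and 53 in Smc1 NOD, 32 on each genome in F1, and 69 and 54 in Smc1 BL6.

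Read pairs per bin were tested only in libraries whose values did not choose the bins. The choice was still made in BL6, on the BL6 genome and with Smc1. It can therefore favour BL6 over NOD and Smc1 over H3K27ac in these bins. The part of the choice in the values below was not tested. For NOD against BL6 in H3K27ac, the median highly connected bin had 14 and 40 read pairs in NOD, against 24 and 99 in BL6. By the quasi-likelihood test of edgeR, adjusted after Benjamini-Hochberg, 0 of 38742 bins were called higher (0%) and 0 lower (0%), and 0 of the 723 highly connected bins that passed the filter on low counts were called. At an unadjusted p under 0.05, 3 of the 723 passed (0.415%), against 191 of all bins (0.493%), and DESeq2 called 38 bins, of which 0 were highly connected. So few of all bins fell under 0.05 that the edgeR test could call little. Its count of 0 does not show that the strains are alike in these bins. With the replicate number as a block, 4.15% of the 723 and 2.08% of all bins fell under 0.05 unadjusted by edgeR. The median log2 fold change was -0.19 for the highly connected bins and -0.04 for all bins, with 264 positive and 459 negative. The SD of the bins' median log2 CPM between libraries was 0.77 in NOD and 0.41 in BL6, larger than this difference. One library decided the count: without H3K27ac NOD 2, 21 of 732 highly connected bins (2.87%) were called lower, against 202 of 45127 bins called either way (0.448%), and without H3K27ac BL6 2, 1 of 720 was called higher, against 0.0465% of all bins. Without H3K27ac NOD 1 or H3K27ac BL6 1 none was called, against 0.0299% and 0.013% of all bins, and the median log2 fold change was 0.23 without H3K27ac NOD 1, -1.02 without H3K27ac NOD 2, -0.39 without H3K27ac BL6 1 and 0.27 without H3K27ac BL6 2.

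For H3K27ac against Smc1 within NOD, on 1 mapping genome, the median highly connected bin had 14 and 40 read pairs in H3K27ac, against 112 and 89 in Smc1. The 2 Smc1 libraries are technical repeats of 1 biological replicate, so the test takes the spread within Smc1 from repeats alone. All 740 bins passed the filter. Of 60101 bins, 0 were called higher (0%) and 0 lower (0%) by edgeR, DESeq2 called 8, and 0 highly connected bins were called by either. At an unadjusted p under 0.05, 39 of the 740 passed (5.27%), against 7411 of all bins (12.3%). The median log2 fold change was -0.15 for the highly connected bins and -0.26 for all bins. The result depended on H3K27ac NOD 2: without it 215 of the 740 (29.1%) were called, 203 of them lower, against 9235 of 79566 bins (11.6%). Without any other single library 0 of the highly connected bins were called, against 0.0209% of all bins without Smc1 NOD 1 and 0% without H3K27ac NOD 1 or Smc1 NOD 2. The median log2 fold change was 0.32 without H3K27ac NOD 1, -0.94 without H3K27ac NOD 2, -0.13 without Smc1 NOD 1 and -0.26 without Smc1 NOD 2.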

How the data were processed

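Each table held 1 library's interactions as counts of read pairs per interaction, with reads per anchor also as counts, which the authors deposited unnormalized, per the file headers; a deposited q-value (at most 0.05) and a floor of 2 read pairs limit what is listed. HiC-Pro, MACS, Juicer 1.7.6 and the build GRCm38 stand in the submitters' processing notes, without a role. Per the table names, NOD reads were mapped to the NOD genome and coordinates shifted to the reference. Anchors were placed in 25 kb bins by midpoint, with spans up to 2 Mb, in Python 3.11.15 with pandas 2.3.3. A partner is another bin with at least 1 listed interaction, and ties at the 98th percentile count as top 2%. Read pairs per bin were fitted over all bins with edgeR 4.0.16 (TMM, robust quasi-likelihood, default filter, Benjamini-Hochberg threshold 0.05), with DESeq2 1.42.0 as an alternative, after being tested on simulated data. In fits and sums an unlisted pair counted as 0. Gene positions came from RefSeq GRCm38.p6. Bins to name were the 20 best by rank sum (1 per 100 kb), bins at the threshold, the 10 highest and lowest in Smc1 NOD, the 10 highest in H3K27ac, and bins with list genes. Only part of these groups is named in the text. The other bins and contacts named were chosen after their values were seen. The bins and gene lists were chosen with earlier results of these data known.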

Additional observations from a re-analysis of the deposited data

Results flagged for a closer look

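Interactions with midpoints under 10 kb apart took no part in the partner counts, and they carried reads at the highly connected bins in all 10 tables, above the limit of 3 counts that a count of 0 allows. Their read pairs at the 740 bins were 296 and 623 in H3K27ac NOD 1 and 2 and 713 and 1749 in H3K27ac BL6 1 and 2. They were 2021 and 3113 in Smc1 NOD 1 and 2, 1298 and 1235 in F1 on the NOD and BL6 genomes, and 3793 and 7870 in Smc1 BL6 1 and 2. Between 1.49% and 2.10% of a table's short interactions lay at the 740 bins, which made up 0.812% to 1.47% of its bins with a partner. These differences were not tested.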

How the results depend on the processing

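Of 740 bins, the rule left 370 at the top 1%, gave 2126 at the top 5%, 592 above the 98th percentile only and 355 bins of 50 kb. With at least 3 read pairs it gave 679 bins, of which 316 were among the 740, and with every table thinned to 158592 interactions it gave 504, of which 269 were among them, so which bins are named depends on these settings. On 1 Smc1 BL6 library alone it gave 1982 to 2157 bins, of which 32.2% to 33.4% stood in the top 2% of Smc1 NOD, 32.1% to 33.7% of F1 on the NOD genome and 31.1% to 32.2% of F1 on the BL6 genome. Other shares that moved were 39.9% in Smc1 NOD and 43.1% in F1 on the NOD genome after thinning, and 44.5% and 43.7% in F1 on the NOD and BL6 genomes with 50 kb bins. Of settings chosen after seeing the data, the top 2% within each chromosome gave 45.8% and chromosomes 1 to 15 gave 44.6% in F1 on the NOD genome. The H3K27ac shares moved by less than their SD under every setting run, but those SDs, 13.6 in NOD and 15.9 in BL6, were wide. On 1 Smc1 BL6 library alone the mean share was 12.3% and 12.1% in H3K27ac NOD, against 17.8% in the main setting. In H3K27ac BL6 it was 20.8% and 20.6%, against 30.9%. For H3K27ac NOD against BL6, DESeq2 called 38 bins, no filter on low counts 37, and leaving out 1 library 6 to 202, with 0 to 21 highly connected bins and a median log2 fold change of -1.02 to 0.27. For H3K27ac against Smc1 in NOD, DESeq2 called 8 bins and leaving out 1 library 0 to 9235, with 0 to 215 highly connected bins and a median of -0.94 to 0.32, and 50 kb bins gave 0.22. With 1 library left in a group, it is assumed to vary like the others; the cause of these shifts was not tested. With the replicate number as a block, 20 bins were called for NOD against BL6 and 1 for H3K27ac against Smc1, none of them highly connected (median -0.25 and -0.40). The labels link same-numbered libraries only by that number, and whether they share anything else was not tested. Their deviations correlated at 0.56 for NOD against BL6 in H3K27ac and at -0.31 for H3K27ac against Smc1 in NOD. Depth limits all values: 59.6% to 73.5% of the interactions in a table rested on 2 read pairs.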
